A study of Homo sapiens with 4 samples.

Results

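ERBB receptors and EGF-type ligands were examined in the core and the invasion zone of melanoma spheroids. The 10 genes were the 4 receptors EGFR, ERBB2, ERBB3 and ERBB4 and the 6 ligands AREG, EREG, HBEGF, TGFA, NRG1 and BTC, each taken as the table row that carries its symbol, and all 10 were found among 56304 gene rows. The cells were MV3, an established human melanoma line labelled as highly metastatic, and in every library they carried a histone H2B-GFP reporter. Each spheroid was started from 50000 cells and kept in collagen I until day 2, without any treatment. The core was then removed with a 1 mm punch and the surrounding zone of invaded cells with a 3 mm punch, giving 2 libraries per zone and 4 in all. The punch cut vertically, so cells that had invaded above or below the core may have been taken with it, and the model holds a single cell line without stroma.

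ERBB receptors are tyrosine kinases at the cell surface that form pairs when a ligand binds. EGFR binds most ligands of the family, ERBB2 has no known ligand and acts as a partner, ERBB3 signals mainly through its partners because its own kinase is weak, and ERBB4 binds neuregulins and several EGF-type ligands. The ligands are made as membrane-anchored precursors and are shed by ADAM proteases, so the transcript level says how much precursor RNA is present and not how much ligand is released. In melanoma the family is known for its part in resistance to inhibitors of the MAPK pathway.

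The transcripts of the ligands HBEGF, NRG1 and EREG had higher values in the invasion zone of both replicates, and those of the receptors ERBB2 and ERBB3 had lower ones. HBEGF was 3.00-fold higher in the invasion zone of replicate 1 and 1.79-fold higher in that of replicate 2, NRG1 1.92-fold and 1.79-fold, and EREG 1.42-fold and 1.51-fold. ERBB3 stood at 0.402 and 0.599 of its core level and ERBB2 at 0.820 and 0.625. EGFR was 1.45-fold and 1.08-fold higher. Without a term for the replicate, none of these differences passed the adjusted threshold. The replicate number was also used as a block, which compares the zones within each replicate. With it edgeR called HBEGF higher and ERBB3 lower, beside 3.79% and 7.39% of all genes tested. DESeq2 with the block did not call ERBB3.

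Depth was 36363358 and 37591782 counts in the core and invasion zone libraries of replicate 1 and 14983135 and 11789243 in those of replicate 2. Values are given as normalized CPM, which are counts scaled to a common library size after TMM scaling (trimmed mean of M values). Intervals and floors given with them cover counting error only. Calls required an adjusted p under 0.05 and at least a 2-fold change. Over the 15529 genes that passed the low-count filter, edgeR's quasi-likelihood test without a replicate term called 0% higher and 0% lower in the invasion zone. Using unadjusted p instead, with the fold minimum kept, 3.19% were higher and 6.41% lower, DESeq2 with adjusted p called 2.27% and 3.44%, and limma voom called 0 genes. With the replicate number as a block, edgeR called 3.79% higher and 7.39% lower. No source says whether the libraries of a zone came from separate cultures, so p-values measure only the spread between these libraries. The melanocyte genes SOX10 and TYR had 0 counts in every library, and PMEL and MLANA stayed at or under 1.01 CPM. MITF, the highest of the 8 melanocyte genes listed, had 2.29 and 1.99 CPM in the core and 1.71 and 3.36 CPM in the invasion zone. AXL, a marker of dedifferentiated melanoma, had 633 and 628 CPM in the core and 1222 and 1120 CPM in the invasion zone. The other 4 genes of that list did not follow it, since S100A4 had 74.7 and 41.5 CPM in the core and 57.0 and 23.4 CPM in the invasion zone, SOX9 and VIM had log2 fold changes of 0.02 and 0.12, and NGFR stayed under 0.07 CPM. Of 4 markers of other cell types, PTPRC, EPCAM and KRT14 stayed under 0.2 CPM, whereas the endothelial gene PECAM1 had 18.1 and 7.42 CPM in the core and 5.22 and 0.925 CPM in the invasion zone. Summed over the 4 markers the level was 7.62 to 18.4 CPM in the core and 1.01 to 5.44 CPM in the invasion zone. PECAM1 made up most of each of these sums, and the cultures were started from MV3 cells alone. The 8 melanocyte genes summed to 2.91 to 6.05 CPM over all libraries. The part of these marker genes in the values of the ERBB family was not tested. In bulk RNA, fewer cells that express a gene and less of its RNA per cell cannot be told apart.

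Among the receptors, EGFR (ENSG00000146648, chr7:55019017-55211628 on GRCh38, plus strand) was the most abundant by counts. It had 135 and 192 CPM in the core libraries of replicates 1 and 2 and 195 and 207 CPM in the invasion zone libraries. The zones did not overlap, but the higher core library nearly reached the lower invasion zone library. The log2 fold change was 0.30 (standard error 0.20, adjusted p = 0.393). With the replicate block it was 0.32 (standard error 0.11, adjusted p = 0.0385), which is under the 2-fold minimum. The ratio was 1.45 in replicate 1 and 1.08 in replicate 2. Its counting intervals, 1.395 to 1.50 and 1.02 to 1.14, did not overlap, but they leave out the spread between libraries. An antisense gene, EGFR-AS1, covers 186 of the 15941 exonic bases of EGFR.

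ERBB2 (ENSG00000141736, chr17:39687914-39730426, plus strand), the partner receptor without a ligand of its own, went the other way. Its core libraries had 108 and 86.7 CPM and its invasion zone libraries 88.6 and 54.1 CPM. Within each replicate the invasion zone was the lower one, but the zones overlapped because the invasion zone library of replicate 1 exceeded the core library of replicate 2. The log2 fold change was -0.44 (standard error 0.26, adjusted p = 0.346), and -0.47 (standard error 0.11, adjusted p = 0.0094) with the replicate block, again under the fold minimum. Genes on the opposite strand cover 715 of its 10321 exonic bases, and with the strand setting of the counting not given in the sources used here, reads there are less certain.

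ERBB3 (ENSG00000065361, chr12:56076799-56103505, plus strand), the receptor with the weak kinase, was scarce. It had 126 and 36 counts in the core libraries and 53 and 17 counts in the invasion zone libraries, or 3.52 and 2.39 CPM against 1.41 and 1.43 CPM. The invasion zone libraries were nearly equal to each other and lower than either core library. The log2 fold change was -1.10 (standard error 0.37, adjusted p = 0.154) without the block, and with it ERBB3 was called lower, at -1.16 (standard error 0.30, adjusted p = 0.0162). In replicate 2 alone the counting interval of the ratio ran from 0.316 to 1.10, so that at this depth the difference within that replicate was not detectable. DESeq2 with the block did not call it, whereas limma voom with the block did.

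ERBB4 (ENSG00000178568, chr2:211375717-212538841, minus strand) had 5 counts in the core library of replicate 1 and 0 in the other 3 libraries. A count of 0 allows up to 3 counts, which is 0.0800 CPM in the deepest of these libraries and 0.252 CPM in the shallowest. ERBB4 did not pass the low-count filter and no fold change is given for it.

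The ligand EREG was the most abundant member of the family, and its gene sits in a cluster of EGF-type ligands on chromosome 4 together with EPGN, AREG and BTC. The sequences upstream of EREG and of its neighbours AREG and EPGN are shown because these genes of the cluster share a strand while their transcript levels were far apart. The window upstream of HBEGF is shown beside them because HBEGF had the largest zone difference of the tested ligands. Each is the run of 250 bases that ends just before the transcription start in RefSeq on GRCh38.p14, written 5′ to 3′ on the strand of the gene. Upstream windows were examined for 8 of the 10 members. Capitals mark the letters TATAAA, the letters CCAAT and the letters TGACGTCA, on either strand.
EREG, chr4:74364895-74365144, plus strand: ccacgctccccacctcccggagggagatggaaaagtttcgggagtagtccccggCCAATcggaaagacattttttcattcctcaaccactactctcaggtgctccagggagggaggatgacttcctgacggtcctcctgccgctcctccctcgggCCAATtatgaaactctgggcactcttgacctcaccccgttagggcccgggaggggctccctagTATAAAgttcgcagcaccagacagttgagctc
AREG, chr4:74444886-74445135, plus strand: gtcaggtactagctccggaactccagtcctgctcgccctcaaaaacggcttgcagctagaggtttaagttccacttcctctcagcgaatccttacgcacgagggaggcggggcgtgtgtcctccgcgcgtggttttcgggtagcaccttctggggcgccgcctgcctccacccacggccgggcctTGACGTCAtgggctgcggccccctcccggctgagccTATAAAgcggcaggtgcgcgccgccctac
EPGN, chr4:74308220-74308469, plus strand: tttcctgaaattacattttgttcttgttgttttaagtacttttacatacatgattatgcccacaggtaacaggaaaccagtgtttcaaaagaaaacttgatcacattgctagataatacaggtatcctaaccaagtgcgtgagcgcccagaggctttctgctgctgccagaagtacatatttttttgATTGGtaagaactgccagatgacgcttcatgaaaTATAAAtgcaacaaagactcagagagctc
HBEGF, chr5:140346604-140346853, minus strand: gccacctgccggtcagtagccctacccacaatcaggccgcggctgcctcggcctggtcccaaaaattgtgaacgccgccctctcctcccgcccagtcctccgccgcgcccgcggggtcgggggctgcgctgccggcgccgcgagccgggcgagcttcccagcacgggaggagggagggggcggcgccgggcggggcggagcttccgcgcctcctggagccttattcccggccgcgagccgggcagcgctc

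The letters TATAAA, the core of a TATA box, began 32 bases before the start of EREG, 29 before AREG and 29 before EPGN, which made 3 of the 4 genes of the cluster, and they occurred in 10.7% of the 35116 upstream windows of this length. TGACGTCA, the palindromic cyclic AMP response element, stood 65 bases before the start of AREG and occurred in 1.65% of windows. CCAAT occurred at 2 positions upstream of EREG and at 1 upstream of EPGN, against 32% of windows with at least 1. The letters TGANTCA of an AP-1 site, found in 6.57% of windows, and ACGTG, the core of a hypoxia response element, found in 18.5%, were in none of the 4 windows shown. GGAATG, bound by TEAD factors and found in 11.9%, was 175 bases before the start of EREG. Among the windows not shown, that of ERBB2 held TGANTCA 222 and CCAAT 243 bases before the start. The window of a second EGFR start held 2 matches of TGANTCA, 2 of TATAAA and 1 of GGAATG. Both of these windows overlap an annotated exon, and the remaining windows not shown held none of these motifs. The 6 motifs were searched on both strands, and ACGTG and TGACGTCA can share bases. A match is a run of letters and not a site shown to be bound, and a missing match concerns only the window.

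EREG (ENSG00000124882, chr4:74365145-74388749, plus strand) encodes epiregulin, a ligand of EGFR and ERBB4. It had 264 and 146 CPM in the core and 375 and 220 CPM in the invasion zone. The core library of replicate 1 exceeded the invasion zone library of replicate 2, so the zones overlapped, but within each replicate the invasion zone was higher by nearly the same ratio, 1.42 (counting interval 1.38 to 1.46) and 1.51 (1.42 to 1.59). The log2 fold change was 0.54 (standard error 0.37, adjusted p = 0.404) without the block. With it the value was 0.55 with a standard error of 0.07 (adjusted p = 0.000799), which is under the 2-fold minimum, so EREG was not called. Leaving out single libraries moved the log2 fold change of EREG from 0.10 to 1.04. By mean CPM, EREG exceeded 95.5% of the genes tested, and EGFR, its receptor, exceeded 92.5%.

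HBEGF (ENSG00000113070, chr5:140332843-140346603, minus strand) encodes heparin-binding EGF-like growth factor, which binds EGFR and ERBB4. In the core it had 14.7 and 36.9 CPM, against 44 and 66.1 CPM in the invasion zone, and the zones did not overlap. The core libraries differed from each other 2.52-fold, which is wider than the mean difference of 2.16-fold between the zones. Without the block the log2 fold change was 1.11 (standard error 0.46, adjusted p = 0.205). With the block HBEGF was called higher, at 1.22 (standard error 0.17, adjusted p = 0.000865), and it was also called by DESeq2 and limma voom with the block. Leaving out single libraries moved the log2 fold change from 0.58 to 1.91. Without core replicate 2 it was 1.91 and without invasion zone replicate 1 it was 1.38, and in both cases the gene passed the threshold without a block, with the lone library assumed to vary like the other zone. Without core replicate 1 it was 0.58 and without invasion zone replicate 2 it was 0.79, and HBEGF was not called (adjusted p = 0.449 and 0.274).

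NRG1 (ENSG00000157168, chr8:31639222-32855666, plus strand) encodes neuregulin 1, a ligand of ERBB3 and ERBB4. Its core libraries had 17.3 and 26.9 CPM and its invasion zone libraries 33.3 and 48.3 CPM, without overlap. The ratio was nearly the same in both replicates, with counting intervals of 1.74 to 2.12 and 1.58 to 2.04. The log2 fold change of 0.89 (standard error 0.29, adjusted p = 0.151) became 0.90 (standard error 0.11, adjusted p = 0.000552) with the block, just under the 2-fold minimum. Without core replicate 2 it was 1.24 and without invasion zone replicate 1 it was 1.14, and NRG1 was then called higher. Without core replicate 1 or invasion zone replicate 2 it was 0.60 in each case and not called (adjusted p = 0.449 and 0.357). The ligand was thus measured at more than 10 CPM in every library in which its receptor ERBB3 had under 4 CPM and its receptor ERBB4 at most 0.140 CPM.

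AREG (ENSG00000109321, chr4:74445136-74455005, plus strand), which encodes amphiregulin, an EGFR ligand, had 1.395 and 1.52 CPM in the core and 1.76 and 1.51 CPM in the invasion zone. The zones overlapped and the log2 fold change was 0.22 (standard error 0.35, adjusted p = 0.745), or 0.23 (standard error 0.32, adjusted p = 0.601) with the block. Its counting intervals, 0.860 to 1.86 in replicate 1 and 0.505 to 1.92 in replicate 2, leave a difference of either sign possible. BTC (ENSG00000174808, chr4:74744759-74794523, minus strand), betacellulin, had 4 counts in the core and 9 in the invasion zone of replicate 1 and 0 in both replicate 2 libraries, where the ratio in replicate 1 had a counting interval of 0.600 to 9.55. TGFA (ENSG00000163235, chr2:70447284-70554193, minus strand), transforming growth factor alpha, had 1 count, in the invasion zone of replicate 2, and 0 counts elsewhere. Neither passed the low-count filter.

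**Figure D1:**
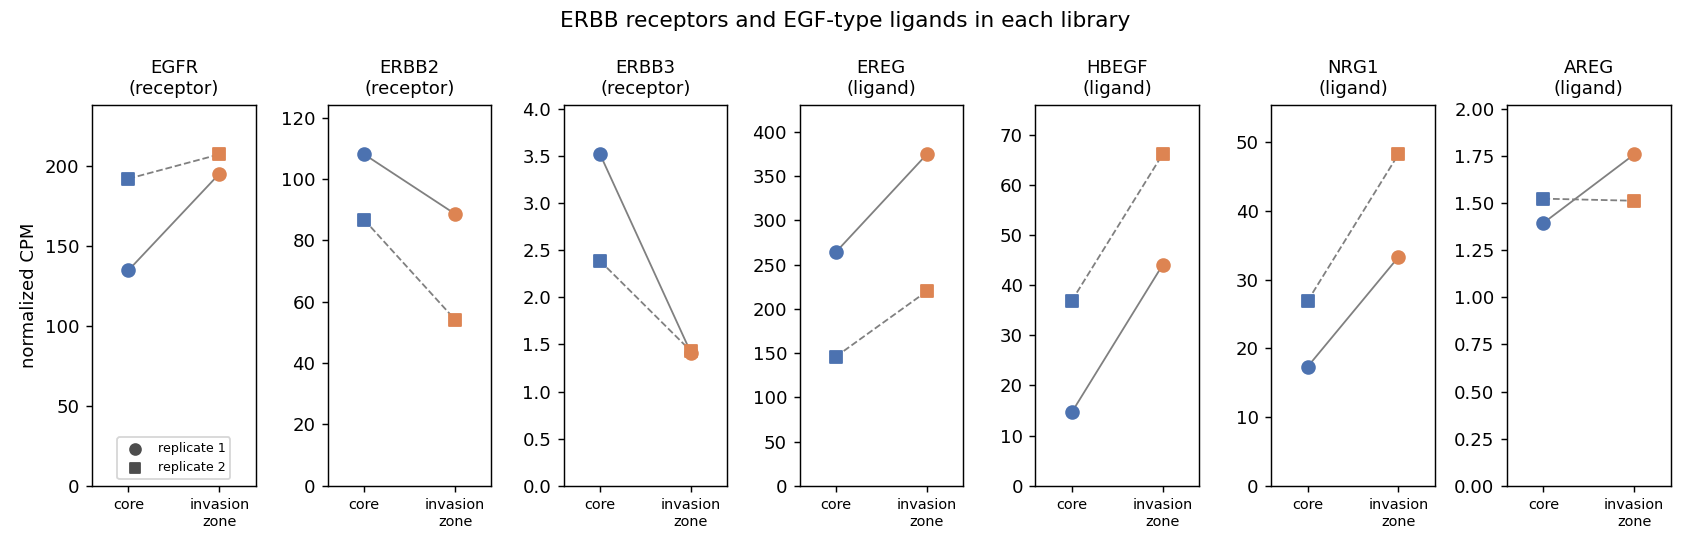
Normalized CPM (vertical axes from 0, with a scale of its own for each gene) of the 7 members that passed the low-count filter, in the core (blue) and the invasion zone (orange), with circles for replicate 1, squares for replicate 2 and lines joining the libraries of a replicate. HBEGF runs from 14.7 to 44 and from 36.9 to 66.1 CPM, whereas both lines of ERBB2 and ERBB3 slope down.

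Of the 7 members tested, 3 were higher in each invasion zone library than in any core library (EGFR, HBEGF and NRG1), against 28.1% of all genes tested, and 1 was lower in each (ERBB3), against 30.3%. Calls with the block were 1 higher and 1 lower, beside 3.79% and 7.39% of all genes. At an adjusted p under 0.05 with the block and no fold minimum, a rule chosen after the data were seen, 4 members were higher (EGFR, EREG, HBEGF and NRG1) and 2 were lower (ERBB2 and ERBB3), beside 20.0% and 20.1% of all genes. AREG was the remaining member. Without the block, 2 of the 7 had an unadjusted p under 0.05, NRG1 higher and ERBB3 lower, beside 12.3% higher and 13.2% lower of all genes tested, so that this count is near the background. The 7 are the members with enough counts, not the whole family. The 4 tested ligands had a median log2 fold change of 0.71 and the 3 tested receptors one of -0.44, beside -0.01 over all genes tested. No test was made of receptors against ligands as groups.

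**Figure D2:**
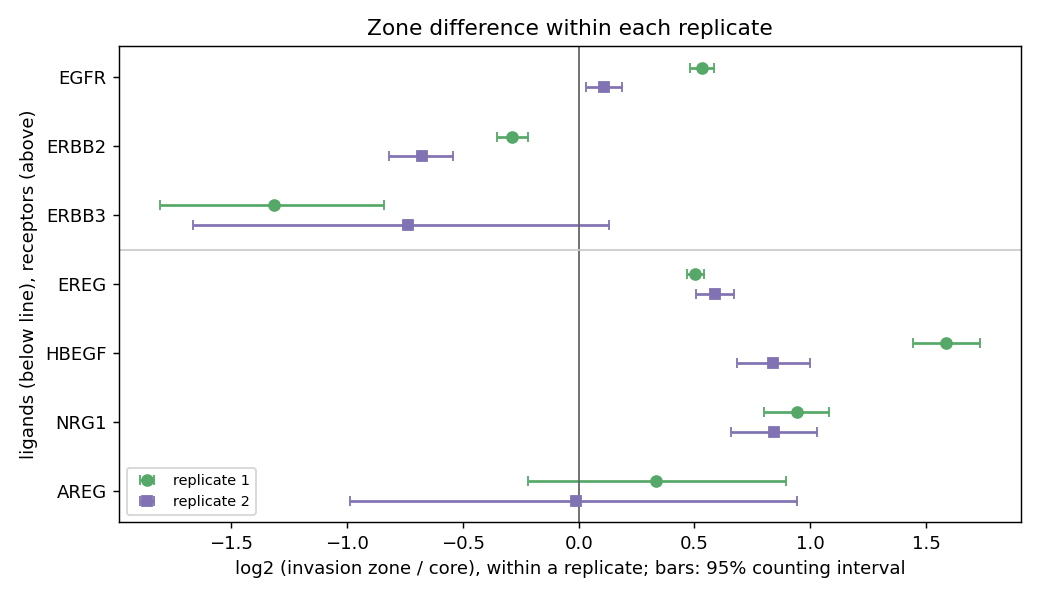
Log2 ratio of invasion zone to core within replicate 1 (green circles) and replicate 2 (purple squares) for the 7 tested members, with bars for the 95% counting interval and a grey line between the 3 receptors and the 4 ligands. EREG, HBEGF and NRG1 lie to the right of 0 in both replicates, with HBEGF at 1.59 and 0.84, whereas ERBB2 and ERBB3 lie to the left.

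The replicates themselves differed, and in the same direction in both zones for 5 of the 7 members. Across all genes tested, deviations from the zone means also correlated between the zones (0.58), so this is not particular to the family. EREG in replicate 2 was 0.553 of its replicate 1 level in the core and 0.587 in the invasion zone, and ERBB2 was 0.802 and 0.611. HBEGF was 2.52-fold and 1.50-fold higher in replicate 2, NRG1 1.55-fold and 1.45-fold, and EGFR 1.42-fold and 1.06-fold. For EREG, and by a small margin for ERBB2, the step between replicates was wider than the step between zones. ERBB3 and AREG showed no shared direction, with ERBB3 at 0.678 of its replicate 1 level in the core and 1.01 in the invasion zone, and AREG at 1.09 and 0.860.

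To compare genes with each other, normalized CPM were divided by the summed exon length of the gene in kb. EREG stood highest, at 46.3 and 25.6 CPM per kb in the core and 65.6 and 38.5 in the invasion zone, and no library of another member reached its lowest value. HBEGF followed with 4.90 to 22.1 CPM per kb over the 4 libraries, EGFR with 8.46 to 13.01 and ERBB2 with 5.25 to 10.5, and neighbours among these 3 overlapped. NRG1 (0.811 to 2.26) and AREG (0.850 to 1.07) overlapped as well and lay below ERBB2, and ERBB3 was lower still at 0.121 to 0.3002. BTC, TGFA and ERBB4 stayed under 0.1 CPM per kb. With the longest transcript as the length, EGFR moved from the third place to the second and HBEGF from the second to the third. Per length, EREG exceeded its cluster neighbour AREG 54.5-fold and 27.6-fold in the core and 61.2-fold and 41.8-fold in the invasion zone.

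**Figure D3:**
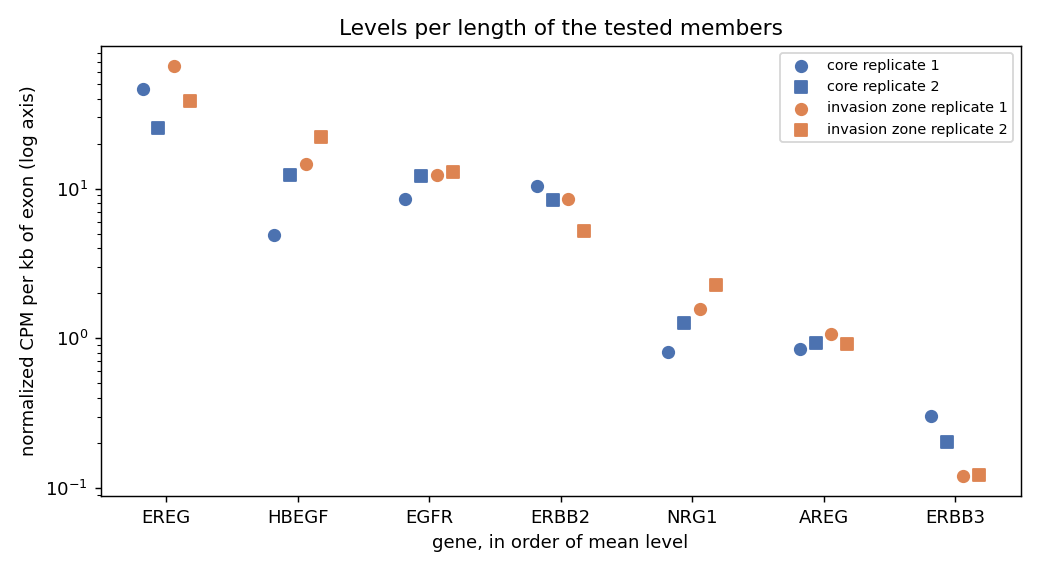
Normalized CPM per kb of exon (log axis) of the 7 tested members, ordered by mean level, with 1 point per library (blue for core, orange for invasion zone, circles for replicate 1, squares for replicate 2). EREG spans 25.6 to 65.6 and ERBB3 0.121 to 0.3002 CPM per kb, and the ranges of HBEGF, EGFR and ERBB2 overlap.

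Within the receptors, the share of EGFR in the summed level per kb was 44% and 58.4% in the core and 58.5% and 70.8% in the invasion zone, whereas that of ERBB2 was 54.4% and 40.6% in the core and 41.0% and 28.5% in the invasion zone. The ratio of EGFR to ERBB2 in the invasion zone was 1.76 and 1.73 times that in the core of the same replicate, and neither library scaling nor gene length enters that comparison. The summed receptors stayed close, at 19.2 and 20.7 CPM per kb in the core and 21.0 and 18.4 in the invasion zone. The summed ligands had 52.9 and 40.1 CPM per kb in the core and 83.0 and 63.8 in the invasion zone, without overlap. Per kb, the ligands therefore stood at 2.75 and 1.94 times the receptors in the core and 3.96 and 3.47 times in the invasion zone. EREG made up 87.5% and 63.8% of the summed ligand level in the core and 79.0% and 60.3% in the invasion zone. These sums were not tested.

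The other genes of the pathway were 65 genes from lists of ligands, proteases, brakes, sorting factors and adaptors, of which 60 passed the low-count filter. Without the block 0 of the 60 were called, with 17 at an unadjusted p under 0.05 (5 higher and 12 lower, beside 12.3% and 13.2% of all genes) and 2 called by DESeq2, both lower (2.27% higher and 3.44% lower of all genes). With the block 0 were called higher and 2 lower, beside 3.79% and 7.39% of all genes tested. By adjusted p alone with the block, 9 were higher and 22 lower, beside 20.0% and 20.1% of all genes, and their median log2 fold change without the block was -0.17.

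The called genes were RHBDF2 and LRIG1. RHBDF2 encodes iRhom2, which carries the protease ADAM17 to the cell surface, and had 93.0 and 83.8 CPM in the core and 45.3 and 25.7 CPM in the invasion zone. Its log2 fold change was -1.30 (standard error 0.28, adjusted p = 0.112), and it had an adjusted p of 0.000354 under the block. LRIG1, a membrane protein that promotes the breakdown of ERBB receptors, had 187 and 108 CPM in the core and 74.1 and 23.6 CPM in the invasion zone, with a log2 fold change of -1.58 (standard error 0.55, adjusted p = 0.162) and an adjusted p of 0.000262 under the block. Both genes were lower in both invasion zone libraries than in either core library.

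By list, the 9 genes of ligand shedding had a median log2 fold change of -0.25. Under the block 0 were called higher and 1 lower. Over all genes 3.79% and 7.39% were called, which are the shares to set beside the calls of every list here. In each invasion zone library 0 genes were higher and 6 lower than in any core library, beside 28.1% and 30.3% of all genes. The 17 tested receptor brakes had a median of -0.30, with 0 called higher and 1 lower, beside 3.79% and 7.39% of all genes. Without overlap, 3 of the brakes were above and 9 below, beside 28.1% and 30.3% of all genes. The 10 genes of receptor sorting had a median of -0.03 and no call in either direction. Without overlap, 1 sorting gene was above and 1 below, beside 28.1% and 30.3% of all genes. The most abundant sorting genes CLTC, RAB7A and HGS had mean levels of 1025, 317 and 262 CPM in the core. In the invasion zone they had 1000, 330 and 311 CPM. The 22 adaptors and effectors had a median of -0.16 and no call in either direction. Of these, 3 were above and 10 below without overlap, beside 28.1% and 30.3% of all genes. SHC1, JAK1 and STAT3 were the most abundant by the mean of both zones. They had 585, 442 and 342 CPM in the core and 511, 394 and 211 CPM in the invasion zone.

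Only 2 of the 5 further EGF-type ligands passed the filter, and neither was called. EPGN, which encodes the EGFR ligand epigen and lies in the cluster with EREG, had 3.68 and 2.78 CPM in the core and 6.45 and 6.22 CPM in the invasion zone, with a log2 fold change of 0.94 (standard error 0.28, adjusted p = 0.138) and an adjusted p of 0.0124 with the block. NRG2, a further neuregulin, had 14.7 and 12.3 CPM in the core and 12.9 and 9.42 CPM in the invasion zone. EGF itself reached at most 0.107 CPM. Within the cluster the 3 tested genes EPGN, EREG and AREG had a median log2 fold change of 0.54.

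Of the genes that were not called, the following were chosen after their values were seen. CBLB, a ubiquitin ligase acting on EGFR, had 75.7 and 73.3 CPM in the core and 41.8 and 32.7 CPM in the invasion zone (log2 fold change -0.99, standard error 0.17). DUSP4, a phosphatase that switches off MAP kinases, had 88.3 and 88.4 CPM against 51.4 and 43.6 CPM (log2 fold change -0.89, standard error 0.15). PTPN11, the SHP2 phosphatase that relays receptor signals to RAS, went the other way with 151 and 187 CPM in the core and 231 and 285 CPM in the invasion zone (log2 fold change 0.61, standard error 0.18). Without the block their adjusted p were 0.112, 0.112 and 0.138. With the block they were 0.000318, 0.000329 and 0.000463, and each change stayed under 2-fold. By adjusted p alone with the block, 4 of the 17 tested receptor brakes were higher and 9 lower. Over all genes these shares were 20.0% and 20.1%.

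**Figure D4:**
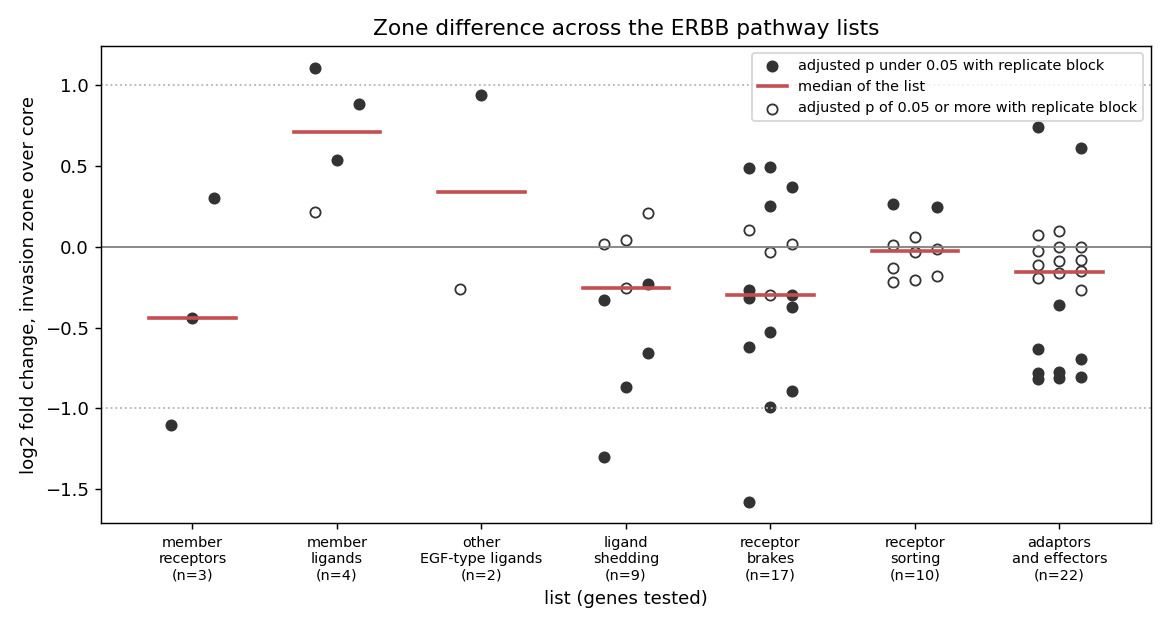
Log2 fold change, invasion zone over core, for each tested gene of the member receptors, member ligands and the other pathway lists, filled where the adjusted p with the replicate block was under 0.05, with red bars at the list medians and dotted lines at 2-fold. The member ligands lie between 0.22 and 1.11, and the lowest points are LRIG1 at -1.58 and RHBDF2 at -1.30.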

How the data were processed

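Bulk RNA of 4 libraries was sequenced after full-length cDNA synthesis. The authors deposited raw counts per gene, made from reads cleaned of ribosomal RNA with Bowtie, aligned to hg38 with STAR and counted with HTSeq-count where they mapped uniquely. The tool versions, the annotation release and whether strand was used were not given in the sources used here. Its table has 56306 rows, of which 2 repeated rows without counts were left out, and 0 columns were unused.

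The filterByExpr rule kept genes with 10 counts, scaled to the median library, in 2 or more libraries and 15 in total (15529 genes, 7 of the 10 members). They were compared in R 4.3.3 with edgeR 4.0.16 (TMM, quasi-likelihood F test, Benjamini-Hochberg adjustment over all 15529 genes), with no replicate term. Standard errors were taken as the log2 fold change divided by the root of F. DESeq2 1.42.0 and limma 3.58.1 served as alternatives.

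The members and lists were chosen with earlier results of these data known. The methods take a core and the zone around it from a spheroid, although no label says that the number marks a shared spheroid. Libraries of the same number shared their deviations from the mean of the zone (correlation 0.58 across genes, 2 pairs). Depth was also closer within a number than between numbers. Whether the shared deviations came from a shared spheroid or from another shared step was not tested. The fit with the replicate block keeps 1 residual degree of freedom per gene, against 2 without it. Libraries of a zone differed beyond sampling noise (chi-square per degree of freedom 33.8 and 31.9).

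Named genes were all members and, of the other lists, up to 4 called genes, or the 3 most abundant over both zones where none was called. CBLB, DUSP4, PTPN11 and the cell markers named were added outside this rule, the first 3 after their values were seen. Positions and exon lengths came from GENCODE release 44 on GRCh38, which may differ from the annotation used for counting. The members left out of the search of upstream windows were ERBB3 and NRG1, so their absence there says nothing about their start sites. Ratios within a replicate carry exact binomial 95% intervals. Figures were drawn with matplotlib 3.10.9.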

Additional observations from a re-analysis of the deposited data

How the results depend on the processing

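The zone difference of each of the 7 tested members kept its sign under all 18 alternatives per member, although several of these alter only the calling rule and cannot turn a sign. Every alternative draws on the same libraries. The sign of AREG was not shared by the replicates, whose ratios were 1.26 in replicate 1 and 0.993 in replicate 2. The size was less steady. Leaving out 1 library moved the log2 fold change of EREG between 0.10 and 1.04, EGFR between 0.08 and 0.58, ERBB2 between -0.85 and -0.14, ERBB3 between -1.30 and -0.74, AREG between 0.07 and 0.28, HBEGF between 0.58 and 1.91 and NRG1 between 0.60 and 1.24. With RLE or upper-quartile scaling HBEGF stayed between 1.08 and 1.12 and ERBB3 between -1.14 and -1.10 (log2 fold change). Without a replicate term, 0 members were called higher and 0 lower. The counts stayed at 0 with both scalings, both other count filters, the legacy edgeR fit, limma voom, DESeq2 with adjusted p and no fold minimum. A single member was called higher with DESeq2 at unadjusted p (1, HBEGF) and with the replicate block in DESeq2 (1, HBEGF). At unadjusted p in edgeR a single one was lower (1, ERBB3), beside 6.41% of all genes. With the replicate block in edgeR or limma voom there was 1 higher and 1 lower, beside 3.79% and 7.39% of all genes in edgeR. With the replicate block and no fold minimum, chosen after seeing the data, there were 4 and 2, beside 20.0% and 20.1% of all genes. Of the other pathway genes, 2 were called lower with DESeq2 at adjusted or unadjusted p, with each replicate block and at unadjusted p. Over all genes, 3.44% were lower with DESeq2 at adjusted p. With the replicate block and no fold minimum, 9 pathway genes were higher and 22 lower, beside the same 20.0% and 20.1%.

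Over all genes, the 0 higher and 0 lower became 81 and 191 without a count filter, 353 and 534 with DESeq2, 444 and 840 with DESeq2 at unadjusted p, 495 and 995 at unadjusted p, 588 and 1147 with the replicate block, 428 and 750 with the replicate block in DESeq2, 575 and 1088 with that in limma voom, and 3107 and 3116 with the replicate block and no fold minimum. The cause was not tested. Leaving out 1 library at a time gave 8 to 693 higher and 108 to 969 lower over all genes, for the members from 0 to 2 higher with 0 lower, and for the other pathway genes from 0 to 8 lower with 0 higher. Without core replicate 2 the calls over all genes were 693 and 835 and without invasion zone replicate 1 they were 533 and 969, and in both HBEGF and NRG1 were called. With the longest transcript as length, the ratio of summed ligands to summed receptors moved from 2.35 to 1.59 in the core and from 3.72 to 2.63 in the invasion zone. Counts limit ERBB3, AREG, BTC, TGFA and ERBB4.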
